A study of Mus musculus with 30 samples.

Results

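The genes described here, 9 of the 56748 genes counted, belong to the muscle Z-disc and its response to mechanical load, and were followed across the 8 groups of the study. They were Ky, Flnc, Igfn1, Xirp1, Xirp2, Ankrd1, Ankrd2, Csrp3 and Ankrd23. Ky was picked for its fall from NT to the highest dose, on the values given here, so that fall is a description and has no test. The other 8 genes were chosen by their known function, with earlier results of these data in view. All 9 genes passed the filter on low counts.

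The Z-disc anchors the thin filaments of neighbouring sarcomeres and links them to the membrane, and it is also where muscle senses load. Kyphoscoliosis peptidase (Ky) and IGFN1 bind the actin crosslinker filamin C (Flnc), and the XIN proteins Xirp1 and Xirp2 gather with filamin C at sites of damage and at muscle ends. The muscle ankyrin repeat proteins Ankrd1, Ankrd2 and Ankrd23 bind titin in the I-band and can also enter the nucleus, and Csrp3 encodes the muscle LIM protein, which binds alpha-actinin and telethonin. Ankrd1, Ankrd2 and Csrp3 are known for their rise when muscle is stretched or overloaded, and Ankrd2 and Csrp3 for higher levels in slow muscle.

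The quadriceps of 30 mice were sequenced as poly(A) RNA. WT mice (n = 5) were FVB/N and untreated, and all other mice were HSA-LR20b on FVB/N, homozygous for a human skeletal actin transgene with a long CTG repeat, a model of myotonic dystrophy type 1 (DM1) in which the repeat is driven by the actin promoter in skeletal muscle and is not in Dmpk. NT mice (n = 8) had no treatment. The labels list an age of 8 weeks for every mouse, WT and NT included. The others received, by tail vein from 8 weeks of age, 1 of these: pacDNA-L9 at 5.3 mg/kg in 4 mice, at 21.2 mg/kg in 3 and at 42.4 mg/kg in 3, free L9 at 5.3 mg/kg in 3, Brush at 40 nmol in 2 and pacDNA-Scr at 5.3 mg/kg in 2, and muscle was taken 2 weeks after the last injection. L9 is an oligonucleotide of locked nucleic acid complementary to CUG repeats, pacDNA-L9 is L9 carried on a bottlebrush polymer, Brush is that polymer alone, and pacDNA-Scr carries a scrambled sequence. The higher doses were reached by more injections, so dose and number of injections cannot be told apart. The labels list 30 separate samples but do not say how litters were spread.

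The libraries held 13605309 to 26956558 counts. They were deposited in 2 sets of 24 and 6 libraries, and in 5 libraries of the second set all 37 mitochondrial genes were listed at 0. Within the first set, 9 libraries had names made of the group and a running number only: 1 WT, 1 NT, all 3 at 42.4 mg/kg, 2 of free L9, 1 Brush and 1 pacDNA-Scr. Dose and name style can therefore be separated at 42.4 mg/kg only through the other groups. The WT library of this kind is called the unnumbered WT library here. Its column name matched no label exactly, so it was placed by that name in the WT group only. It stood apart from the other 4 WT libraries in Xirp1, Ankrd2 and Csrp3. The results for these genes against WT are given with and without it. The free L9 libraries differed among themselves more than those of other groups: the SD over genes of the log2 difference was 1.00 in their closest pair and 0.284 to 0.440 in the closest pair of each other group. Free L9 B had the most mitochondrial counts of any library, 3745588 of its 16782911 counts, and the next highest was 2522045 in the unnumbered WT library. Free L9 C had the fewest counts of any library, 13605309. The sex of each mouse was read from Xist and Y-linked genes. All 3 libraries at 42.4 mg/kg were female, while every other group held both sexes. Sex was not a term in the main fit. In bulk muscle, fewer cells of a type and less RNA per cell cannot be told apart.

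The short stretches below, each upstream of a RefSeq start site, are shown because they hold the motifs found in the members that changed most or were most abundant. Promoters of 300 bases (250 before and 50 after the start, RefSeq on GRCm38) were given for 8 of the 9 genes. Each stretch below was found once on its chromosome in GRCm39, the build of the counts, and the motif is in capitals. In GENCODE vM39 the Ankrd1 and Flnc stretches lie in an annotated UTR exon, downstream of the first base of the gene, and the Xirp2 stretch lies in an intron. The M-CAT motif (CATTCC or its complement GGAATG), the letters bound by TEAD factors, stood at 2 places in Ankrd1 and upstream of a Flnc start, and the MEF2 motif stood upstream of an Xirp2 start.
Ankrd1, M-CAT 210 bases upstream, chr19:36097437-36097466, minus strand: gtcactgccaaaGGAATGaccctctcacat
Ankrd1, M-CAT 123 bases upstream, chr19:36097350-36097379, minus strand: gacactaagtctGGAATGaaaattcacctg
Flnc, M-CAT 104 bases upstream, chr6:29433139-29433168, plus strand: cgggccgggcggCATTCCtgggaggccggc
Xirp2, MEF2 74 bases upstream, chr2:67276262-67276291, plus strand: agctcagttcCTAAAAATAGgtgctaggtt
The M-CAT letters, on either strand, were in 14.7% of all 32851 promoters, the E-box CAGCTG in 16.3%, the MEF2 motif in 0.557% and the SRF motif (CArG box) in 1.63%. Ankrd23 also held M-CAT letters and Igfn1 an E-box, and none of the 8 genes with a promoter held the SRF motif in these windows. Xirp1 had no promoter to search. The Ky promoter held none of the 4. As L9 is complementary to 3 CTG units, the transcripts were searched for runs of that length: only Ankrd23, in its 3′ UTR, held one among the 9, against 21.1% of the 13776 coding genes searched.

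Ky lies on chromosome 9 at 102382949 to 102423441 of GRCm39 and encodes a muscle protein with a transglutaminase-like fold that binds filamin C. Levels are given in CPM, counts scaled to a common library size after TMM normalization. In WT, Ky stood at 610, 490, 477 and 422 CPM in the numbered mice and at 285 CPM in the unnumbered library. In NT the lowest library was at 142, the median at 243 and the highest at 393 CPM. At 42.4 mg/kg the 3 libraries were at 66.4, 23.9 and 48.5 CPM.
The 42.4 mg/kg libraries were thus below every other library of the study, while WT and NT overlapped. The fitted log2 change was -2.60 ± 0.38 (SE) from NT and -3.30 ± 0.40 from WT, a 6.06-fold and a 9.87-fold lower level, given with no test because the first of these chose the gene. From WT to NT the log2 change was -0.70 ± 0.27, also a description, since the same NT libraries entered the choice.

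**Figure D1:**
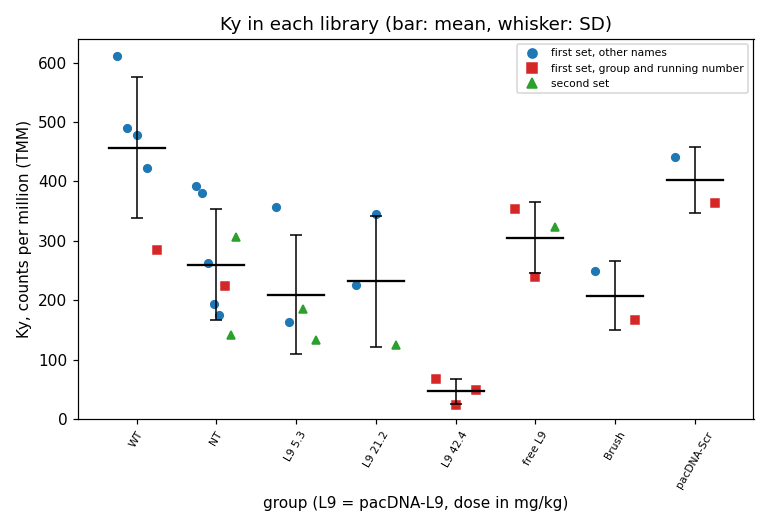
Ky in CPM (y axis) in each of the 30 libraries by group (x axis), with marker shape for the deposited set and name style, bars for the mean and whiskers for the SD. The 3 libraries at 42.4 mg/kg sit between 23.9 and 66.4 CPM, and every other library sits at 125 CPM or above.

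In the groups that the choice of Ky did not use, no difference from WT passed the test. Ky stood at 356, 162, 185 and 133 CPM at 5.3 mg/kg and at 225, 344 and 125 CPM at 21.2 mg/kg. The log2 changes from WT were -0.94 ± 0.34 at 5.3 mg/kg (adjusted p = 0.199) and -0.89 ± 0.36 at 21.2 mg/kg (adjusted p = 0.283), tested by edgeR's quasi-likelihood method and adjusted by Benjamini-Hochberg over all 17518 genes. The 5.3 and 21.2 mg/kg groups each had libraries inside the NT range of 142 to 393 CPM, and each had 1 below it.
Free L9 left Ky at 353, 238 and 324 CPM, Brush at 248 and 167 CPM and pacDNA-Scr at 442 and 363 CPM. Their log2 differences from WT were -0.40 ± 0.36, -1.14 ± 0.42 and -0.18 ± 0.40 in that order (edgeR adjusted p = 0.555, 0.218 and 0.975). In log2 terms Ky differed from NT by -0.23 ± 0.29 at 5.3 mg/kg, by -0.18 ± 0.32 at 21.2 mg/kg and by 0.30 ± 0.32 with free L9, as descriptions. Between 5.3 mg/kg of pacDNA-L9 and the same dose of free L9 the log2 difference in Ky was -0.53 ± 0.36 (edgeR adjusted p = 0.614).

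The libraries named by group and running number were the lowest for Ky in WT (285 against 422 to 610 CPM), Brush and pacDNA-Scr, and inside the range of the others in NT (223 against 176 to 393 CPM). With name style in the fit, the second set was kept as a level and the first set was split by library name. The log2 change of Ky from NT to 42.4 mg/kg was then -2.13. Over only the 9 libraries of this name style, an alternative chosen after seeing the data in which most groups had 1 library, it was -2.27 from NT and -2.62 from WT, beside -0.35 from WT to NT.

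Over the 24 libraries of the first set, among 9351 genes with a mean of at least 5 CPM, the genes whose log2 level went most closely with Ky were Lsmem1 (Pearson r = 0.91), Plcd4 (0.91), Fam78a (0.90), Tmem233 (0.87) and Sec14l5 (0.87). The genes that ran most against it were Foxo1 (r = -0.95), a transcription factor of the fasting response, Mapre2 (-0.91), 6430548M08Rik (-0.90), Gabarapl1 (-0.90), an autophagy protein, and Mt1 (-0.90), a metallothionein. These rankings include the 3 libraries at 42.4 mg/kg for which Ky was picked. Without them (n = 21) r was 0.67 for Lsmem1, 0.77 for Plcd4, 0.64 for Fam78a, 0.66 for Tmem233 and 0.41 for Sec14l5. On the opposing side r was then -0.79 for Foxo1, -0.71 for Mapre2, -0.53 for 6430548M08Rik, -0.51 for Gabarapl1 and -0.52 for Mt1. The libraries share groups and depth, so these values describe the table only. Among the other members, r with Ky over the same 24 libraries ran from -0.73 (Ankrd2) to 0.23 (Ankrd23). These values include the 42.4 mg/kg libraries for which Ky was picked. With group means removed r was -0.46 for both Ankrd2 and Csrp3, 0.15 for Flnc (-0.61 with them) and 0.12 for Xirp1 (-0.69 with them).

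Flnc, on chromosome 6 at 29433072 to 29461887, encodes filamin C, the partner that Ky, Igfn1 and the XIN proteins share, and it was higher in HSA-LR muscle and higher again at the top dose. In WT the 5 libraries stood at 533, 627, 704, 704 and 790 CPM. NT ran from 1093 through a median of 1689 to 1987 CPM, and the 42.4 mg/kg libraries stood at 3259, 3208 and 3039 CPM.
These 3 groups did not overlap. Flnc rose by 1.29 ± 0.23 on the log2 scale from WT to NT (2.45-fold, edgeR adjusted p = 0.00066) and by a further 0.95 ± 0.25 from NT to 42.4 mg/kg (1.93-fold, adjusted p = 0.0329). Against WT the log2 difference at 42.4 mg/kg was 2.24 ± 0.27 (4.72-fold, edgeR adjusted p = 2.6e-06). The change from NT lost its call when any 1 of the 3 libraries at 42.4 mg/kg was left out, with log2 values of 0.92 without A, 0.94 without B and 0.97 without C (edgeR adjusted p = 0.103, 0.182 and 0.0853), and also without NT 3 (adjusted p = 0.0683) or NT 5 (adjusted p = 0.0646). With name style in the fit it was 1.17 (adjusted p = 0.0444).

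The lower doses and controls held Flnc between WT and the top dose in most libraries. At 5.3 mg/kg it stood at 1704, 3122, 1338 and 1977 CPM, and at 21.2 mg/kg at 1868, 2448 and 1292 CPM. Against NT the log2 differences were 0.33 ± 0.23 and 0.20 ± 0.25, and neither passed edgeR's test (both adjusted p = 1.00), whereas against WT both did, with log2 values of 1.62 ± 0.27 (adjusted p = 0.00039) and 1.49 ± 0.28 (adjusted p = 0.00168).
Brush, at 2344 and 1490 CPM, and pacDNA-Scr, at 2178 and 1386 CPM, were likewise above WT, by log2 values of 1.51 ± 0.30 and 1.41 ± 0.30 (edgeR adjusted p = 0.00383 and 0.00852). Left with 1 library, Brush (without A) and pacDNA-Scr (without A) gave adjusted p values of 0.222 and 0.402.
Free L9 had the lowest Flnc of the HSA-LR groups, with 1116, 536 and 1346 CPM, and library B lay within the WT range. Its log2 difference was 0.60 ± 0.29 from WT (edgeR adjusted p = 0.221) and -0.69 ± 0.27 from NT (adjusted p = 0.246, and 0.0438 without free L9 C, at a log2 value of -1.04). At the same dose of L9, Flnc was 1.02 ± 0.30 higher on the log2 scale with the polymer than without it (2.03-fold), which did not pass the test (edgeR adjusted p = 0.115). DESeq2 called this difference (adjusted p = 0.0301), as did edgeR without free L9 C (adjusted p = 0.0272). Without free L9 B the log2 difference was 0.72 (edgeR adjusted p = 0.275), and that from NT was -0.38 (adjusted p = 0.600).

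Xirp1, on chromosome 9 at 119842821 to 119852664, encodes XIN, an actin-binding repeat protein that is recruited to damaged Z-discs. It too was higher in NT than in WT and higher again at the top dose. WT stood at 117 to 143 CPM in the numbered libraries and at 224 CPM in the unnumbered one. NT ran from 228 through 317 to 728 CPM, and 42.4 mg/kg gave 981, 963 and 816 CPM, again without overlap.
Xirp1 rose by 1.31 ± 0.29 on the log2 scale from WT to NT (2.48-fold, edgeR adjusted p = 0.00538) and by 1.30 ± 0.31 from NT to 42.4 mg/kg (2.46-fold, adjusted p = 0.0168). Against WT the log2 difference at 42.4 mg/kg was 2.61 ± 0.34 (edgeR adjusted p = 8.4e-06). The rise from NT was not called without library A (adjusted p = 0.0649) or B (0.132) of the 42.4 mg/kg group, or with name style in the fit (log2 1.20, adjusted p = 0.172).
The 5.3 mg/kg libraries spread from 251 to 782 CPM and those of 21.2 mg/kg from 275 to 488 CPM, so both overlapped NT. At 21.2 mg/kg Xirp1 differed from WT by 1.18 ± 0.35 on the log2 scale, which did not pass the test (edgeR adjusted p = 0.0709). Xirp1 was above WT at 5.3 mg/kg (log2 1.71 ± 0.34, edgeR adjusted p = 0.00312), with Brush (1.65 ± 0.38, adjusted p = 0.0139) and with pacDNA-Scr (1.45 ± 0.38, adjusted p = 0.0389). The last of these had an adjusted p of 0.374 without library B and 0.168 without library A, and from 0.0728 to 0.0967 without any 1 numbered WT library. The Brush call was also lost without either of its libraries (0.224 and 0.0782). Without the unnumbered WT library the log2 values for Xirp1 against WT were 1.498 in NT, 2.80 at 42.4 mg/kg, 1.90 at 5.3 mg/kg, 1.83 with Brush and 1.64 with pacDNA-Scr, all called by edgeR (adjusted p = 0.0035, 9.7e-06, 0.0019, 0.0077 and 0.0217).

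Xirp2, the longer XIN protein, had the highest level per kilobase of the 9 in WT, and no difference between WT, NT and the top dose passed the test. Its libraries ran from 1851 to 3468 CPM in WT, from 2399 to 3744 CPM in NT and from 3609 to 3905 CPM at 42.4 mg/kg, so NT overlapped both of the others and the top dose lay above WT. The log2 differences were 0.11 ± 0.19 from WT to NT (edgeR adjusted p = 0.862), 0.36 ± 0.22 from NT to 42.4 mg/kg (0.527) and 0.47 ± 0.23 from WT to 42.4 mg/kg (0.214). Free L9 B, at 5236 CPM, and 21.2 mg/kg B, at 5050 CPM, held the highest Xirp2 values of the 30 libraries.

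Igfn1, whose protein binds Ky and filamin C, was higher in HSA-LR muscle and spread widely. In WT it stood at 8.43, 104, 112 and 93.3 CPM in the numbered libraries and at 37.4 CPM in the other. NT ran from 123 through 224 to 416 CPM, just clear of WT. The 42.4 mg/kg libraries, at 242, 434 and 187 CPM, lay mostly within the NT range.
Igfn1 rose by 1.86 ± 0.53 on the log2 scale from WT to NT (3.63-fold, edgeR adjusted p = 0.0388) and differed by 0.15 ± 0.58 from NT to 42.4 mg/kg (adjusted p = 0.983). Leaving out 1 library at a time moved the first adjusted p between 0.0328 and 0.102. The call was lost without WT 1, WT 4, the unnumbered WT library, or any 1 of NT 2, 3, 4, 5, 7 and 8. It was also lost with no set term (adjusted p = 0.0737), in the first set alone (0.0657), with no filter on low counts (0.0948) and with the replicate block (0.135). Against WT the log2 difference at 42.4 mg/kg was 2.01 ± 0.61 (edgeR adjusted p = 0.0349), and it was not called without the unnumbered WT library (adjusted p = 0.0751) or without library A (0.0578) or B (0.202) of that group. With free L9 the gene stood at 467, 120 and 455 CPM, above WT by 2.62 ± 0.65 on the log2 scale (edgeR adjusted p = 0.0169).

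Ankrd1, the cardiac ankyrin repeat protein, had the lowest level per kilobase of the 9 in WT and the largest fold changes from WT to NT and to 42.4 mg/kg. WT held 4.82, 1.46, 4.41, 2.75 and 4.16 CPM. NT ran from 4.20 through 27.3 to 81.8 CPM, and 42.4 mg/kg gave 103, 55.3 and 66.6 CPM.
Only NT 2 lay within the WT range, and 2 of the 3 top-dose libraries lay within the NT range. The log2 rise was 3.01 ± 0.63 from WT to NT (8.05-fold, edgeR adjusted p = 0.00419) and 4.41 ± 0.72 from WT to 42.4 mg/kg (21.3-fold, adjusted p = 2.0e-04). The log2 difference of 1.40 ± 0.61 between NT and 42.4 mg/kg did not pass the test (edgeR adjusted p = 0.306). Ankrd1 was also above WT at 5.3 mg/kg (log2 3.70 ± 0.70, edgeR adjusted p = 0.00295), at 21.2 mg/kg (3.31 ± 0.71, adjusted p = 0.00852) and with free L9 (3.02 ± 0.70, adjusted p = 0.0111). The first 2 of these lost the call without library B of the treated group (adjusted p = 0.0594 and 0.265). In the annotation 24.3% of the exon bases of Ankrd1 lie opposite Gm56671, and whether counting used the strand is not given in the sources used here.

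Ankrd2, a stretch-response protein of slow muscle, stood at 23.8, 6.23, 24.9 and 26.5 CPM in the numbered WT libraries and at 88.9 CPM in the unnumbered one. NT ran from 36.0 through 74.1 to 143 CPM. The libraries of 21.2 mg/kg stood at 139, 169 and 148 CPM and those of 42.4 mg/kg at 278, 225 and 302 CPM.
The top dose was clear of both WT and NT. The log2 difference was 1.19 ± 0.47 from WT to NT (edgeR adjusted p = 0.177), 1.78 ± 0.50 from NT to 42.4 mg/kg (3.44-fold, adjusted p = 0.0517) and 2.98 ± 0.56 from WT to 42.4 mg/kg (7.87-fold, adjusted p = 9.0e-04). Without the unnumbered WT library the first of these was 1.93 (edgeR adjusted p = 0.0089) and the third 3.72 (adjusted p = 3.8e-05). The first was also called with name style in the fit (1.40, adjusted p = 0.0275) and with the replicate block (1.69, adjusted p = 0.0044). The second was called without NT 6 (2.00, adjusted p = 0.0292), by DESeq2 (adjusted p = 0.0364), with no robust estimation (0.0367), with at least 10 counts in every library (0.0325) and without mitochondrial genes (0.0498). With name style in the fit the second was 0.87 (adjusted p = 0.573). The rise over WT at 21.2 mg/kg was 2.12 ± 0.57 (edgeR adjusted p = 0.0448) and lost its call without any 1 of the 3 treated libraries or of the 4 numbered WT libraries, with adjusted p between 0.0697 and 0.187. Without the unnumbered WT library it was 2.86 (edgeR adjusted p = 0.0017).

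Csrp3, the muscle LIM protein, also had its highest WT value in the unnumbered library. The numbered WT mice held 17.2, 7.98, 34.9 and 29.4 CPM and the unnumbered library 170 CPM. NT ran from 19.5 through 143 to 219 CPM, 5.3 mg/kg from 120 to 497 CPM, and 42.4 mg/kg gave 434, 204 and 365 CPM.
NT overlapped the numbered WT libraries in NT 2 only, and the unnumbered WT library lay well inside NT. The log2 difference was 1.53 ± 0.66 from WT to NT (edgeR adjusted p = 0.227) and 2.74 without the unnumbered WT library (adjusted p = 0.009). It was also called with name style in the fit (2.15, adjusted p = 0.0085) and with the replicate block (2.27, adjusted p = 0.0217). Against WT the 42.4 mg/kg group was 2.69 ± 0.77 higher on the log2 scale (6.44-fold, edgeR adjusted p = 0.027), and 3.90 higher without that library (adjusted p = 7.2e-04). That call was lost without any 1 of the 4 numbered WT libraries or of libraries A and C at 42.4 mg/kg, with adjusted p between 0.0531 and 0.089. It was also lost with name style in the fit (log2 1.69, adjusted p = 0.134), in the first set alone (0.0518) and with no filter on low counts (0.0614). Between NT and 42.4 mg/kg the log2 value was 1.16 ± 0.71 (adjusted p = 0.541), and -0.46 with name style in the fit (adjusted p = 0.902).

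Ankrd23, the third ankyrin repeat partner of titin, was the one member besides Ky with a lower mean in NT than in WT. WT ran from 75.5 to 144 CPM, NT from 58.5 to 104 CPM and 42.4 mg/kg from 64.9 to 86.2 CPM, all overlapping. The log2 differences were -0.51 ± 0.21 from WT to NT (edgeR adjusted p = 0.205) and -0.06 ± 0.25 from NT to 42.4 mg/kg (adjusted p = 0.989). The fall from WT to NT was called with the replicate block over WT and NT 1 to 4 (log2 -0.73, edgeR adjusted p = 0.028), in the same 8 libraries without it (-0.76, adjusted p = 0.0153) and in the 15 other libraries of the first set (-0.70, adjusted p = 0.0067). In the annotation 45.9% of its exon bases are shared with Cnnm3 or Gm42417 on the same strand, so its counts are uncertain.

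**Figure D2:**
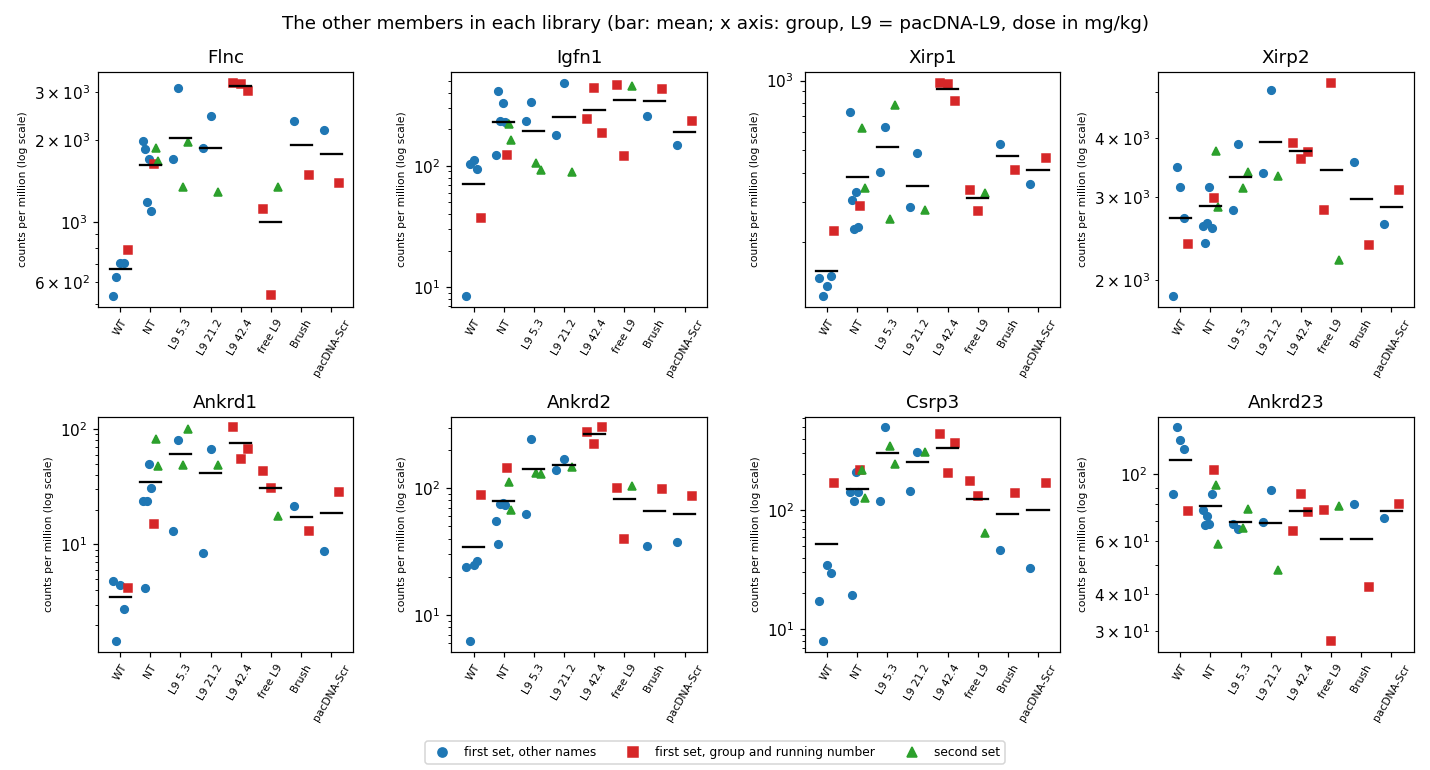
Levels in CPM (y axis, log scale) of the 8 genes other than Ky in each library by group (x axis), with bars for the mean and marker shape for the deposited set and name style. Flnc and Xirp1 at 42.4 mg/kg lie above all WT and NT libraries, and the unnumbered WT library, the WT square, lies above the other WT libraries in Xirp1, Ankrd2 and Csrp3.

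Per kilobase of exon, in WT, the order of mean levels was Xirp2 (188 CPM per kb), Ky (77.7), Flnc (69.6), Ankrd2 (25.6), Ankrd23 (24.3), Xirp1 (24.2), Csrp3 (13.3), Igfn1 (7.90) and Ankrd1 (1.18). At 42.4 mg/kg Flnc (328) came before Xirp2 (260), Ankrd2 (202) and Xirp1 (148), and Ky (7.86) came last. In WT the neighbours Ky and Flnc, and Ankrd2, Ankrd23 and Xirp1, did not differ beyond their spread. Over the 4 numbered WT libraries alone the order changed, with Ankrd23 (26.2) and Xirp1 (21.2) before Ankrd2 (15.3), and Igfn1 (8.84) before Csrp3 (5.75). The length used was all annotated exon bases of a gene, not the length of a transcript. For Csrp3 this was 3889 bases, beside 1172 in its longest coding transcript, and for Ankrd23 it was 4597 beside 3218. The places of such genes in either order therefore depend on the length chosen, and Csrp3 would rank higher by transcript length.

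Counted together for NT against WT, 4 of the 8 members tested rose (Flnc, Igfn1, Xirp1 and Ankrd1) and none fell in edgeR's test, against 5.31% of all genes called. The median log2 change of those 8 was 1.30, and that of all genes was -0.03. From NT to 42.4 mg/kg, Flnc and Xirp1 rose, 2 of 8, against 3.14% of all genes, with a median of 1.05 against -0.02. From WT to 42.4 mg/kg, 6 of 8 rose (all but Xirp2 and Ankrd23), against 9.98%.
At 5.3 mg/kg no member and 0% of all genes were called against NT by edgeR, where 277 of the genes and 0 of the 8 members had an unadjusted p under 0.05 and DESeq2 called 1 gene and 0 members. At 21.2 mg/kg 0 of 8 were called against NT, beside 0.0685% of all genes. There 1 member (Xirp2) had an unadjusted p under 0.05 in edgeR, and DESeq2 called 0.
Free L9 against NT gave 0 of 8 members (0.942% of all genes), with 1 member (Flnc) at an unadjusted p under 0.05 in edgeR and 0 by DESeq2. Brush and pacDNA-Scr against NT each gave 0 members and 0% of all genes in edgeR. In those comparisons 329 and 270 genes and 0 members had an unadjusted p under 0.05, and DESeq2 called 6 and 0 genes and 0 members.
Between 5.3 mg/kg of pacDNA-L9 and free L9, 0 of 9 members (0.719% of all genes) were called by edgeR, where 1 member (Flnc) had an unadjusted p under 0.05 and DESeq2 called 1. Against WT the called members, all higher, were 3 of 9 at 5.3 mg/kg (2.55% of all genes), 3 of 9 at 21.2 mg/kg (2.49%), 2 of 9 with free L9 (6.55%), 2 of 9 with Brush (1.98%) and 2 of 9 with pacDNA-Scr (1.92%). These comparisons share the WT or the NT libraries.

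**Figure D3:**
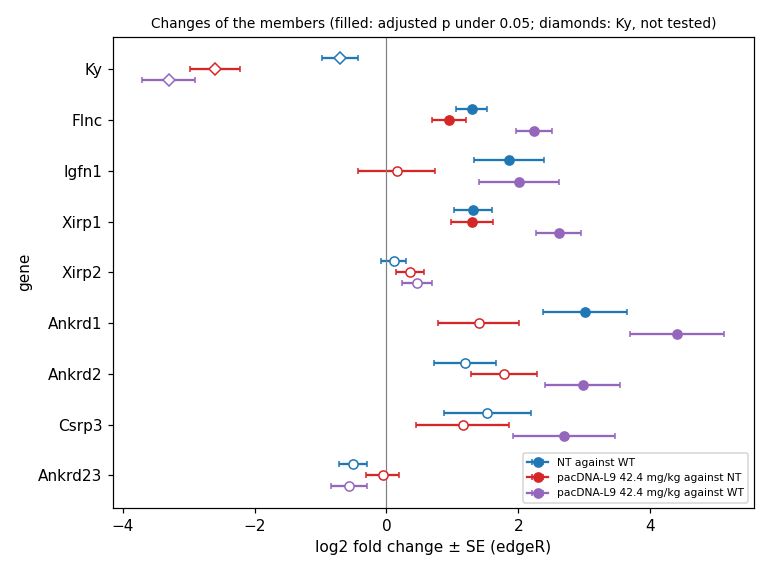
Log2 fold change with its SE (x axis) for each gene (y axis) in NT against WT, 42.4 mg/kg against NT and 42.4 mg/kg against WT, filled where the edgeR adjusted p was under 0.05 and as diamonds for Ky, which was not tested. Flnc and Xirp1 are filled in all 3 comparisons, and Ky lies at -2.60 and -3.30 in the 2 that hold the top dose.

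The gene groups around the members are given by their calls and medians, beside the 5.31% of all genes called from WT to NT and the 3.14% called from NT to 42.4 mg/kg. Of 22 core Z-disc genes, 4 rose from WT to NT (Actn2, Pdlim3, Synpo2 and Fhl1), 1 fell (Pdlim7), and 0 were called from NT to 42.4 mg/kg, with median log2 changes of 0.27 and 0.17. In the latter comparison 4 of the 22 had an unadjusted p under 0.05 in edgeR, and DESeq2 called 0. The LIM protein gene Fhl1 stood at 678 ± 316 CPM (SD, n = 5) in WT and 3696 ± 1081 CPM (n = 8) in NT, a log2 rise of 2.48 ± 0.30 (edgeR adjusted p = 2.8e-06). Pdlim7, a further LIM protein gene, fell to 126 ± 47.2 CPM in NT (log2 -1.58 ± 0.28 from WT, adjusted p = 6.9e-04).
Among 12 genes of the chaperone-assisted turnover of filamin C, Hspb1, Synpo2 and Hspb7 rose from WT to NT, and Hspb1 and Fbxo32 rose from NT to 42.4 mg/kg (medians 0.25 and 0.68 on the log2 scale). The small heat shock gene Hspb1 went from 432 ± 146 CPM in NT to 1113 ± 253 CPM at 42.4 mg/kg (log2 1.34 ± 0.31, edgeR adjusted p = 0.0107). Fbxo32, a ubiquitin ligase subunit of muscle atrophy, went from 265 ± 78.0 to 797 ± 192 CPM (log2 1.63 ± 0.32, adjusted p = 0.00298). Hspb7 rose by 2.51 ± 0.29 on the log2 scale from WT to NT (adjusted p = 1.3e-06).

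Of 14 genes for titin and its partners, Myom2 and Nbr1 rose from WT to NT, and Trim63, the ligase MuRF1, rose from 223 ± 29.7 CPM in NT to 1195 ± 962 CPM at 42.4 mg/kg (log2 2.50 ± 0.28, edgeR adjusted p = 2.3e-06). Of 20 costamere genes, 1 fell from NT to 42.4 mg/kg (Lims1, log2 -0.88 ± 0.23, adjusted p = 0.0295). Lims1 stood at 38.5 ± 7.41 CPM in WT, 75.5 ± 23.6 CPM in NT and 40.5 ± 3.99 CPM at 42.4 mg/kg. Of 13 genes for YAP and TEAD factors and their targets, Ccn1 and Tead4 rose and Amotl2 fell from WT to NT. Tead1, a factor that binds M-CAT letters, fell from 222 ± 57.9 CPM in NT to 115 ± 1.59 CPM at 42.4 mg/kg (log2 -0.97 ± 0.22, edgeR adjusted p = 0.00831).

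Markers of other cells and of fibre type moved in some of the same libraries. The summed level of 7 slow-fibre markers ran from 154 to 379 CPM in WT, from 81.3 to 1586 CPM in NT and from 188 to 2357 CPM at 42.4 mg/kg, and 0 of the 7 were called from WT to NT or from NT to 42.4 mg/kg by edgeR. At an unadjusted p under 0.05 these numbers were 0 and 3, and DESeq2 called 0 in both. The median log2 change of the 7 was 0.38 from WT to NT and 2.37 from NT to 42.4 mg/kg. The median of the sum was 245 CPM in WT, 292 CPM in NT and 1729 CPM at 42.4 mg/kg. Over the 30 libraries, which share groups, the log2 level of Ankrd2 went with this sum at r = 0.62, that of Csrp3 at 0.50 and that of Flnc at 0.27, and at 0.57, 0.35 and -0.03 with group means removed. Ky ran against the sum, at r = -0.46 and, with group means removed, -0.54. These values include the 42.4 mg/kg libraries for which Ky was picked. At 42.4 mg/kg library A had 188 CPM of slow markers beside 278 CPM of Ankrd2 and 434 CPM of Csrp3. The unnumbered WT library had the highest slow-marker sum of WT, 379 CPM.
The summed level of 7 macrophage markers was 50.2 to 83.6 CPM in WT, 57.2 to 111 CPM in NT and 227 to 336 CPM at 42.4 mg/kg. From NT to 42.4 mg/kg 5 of the 7 rose (Cd68, C1qa, C1qb, Csf1r and Lyz2). Brush, at 172 and 191 CPM, also lay above NT in this sum. Its Flnc was above the NT range in library A (2344 CPM) and inside it in library B. The macrophage sum ran from 122 to 173 CPM at 5.3 mg/kg and from 109 to 252 CPM at 21.2 mg/kg. It was 97.0 and 146 CPM with pacDNA-Scr, and ran from 54.5 to 87.4 CPM with free L9. Over the 30 libraries r of Ky with the macrophage sum was -0.71, and -0.23 with group means removed. The first of these includes the 42.4 mg/kg libraries, for which Ky was picked and which held high macrophage sums. The part of fibre type and of macrophages in the members' values was not tested. The 9 fast-fibre markers had 1 call in NT against WT (Myh1, higher) and 0 from NT to 42.4 mg/kg in edgeR, where 0 had an unadjusted p under 0.05 and DESeq2 called 0.

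**Figure D4:**
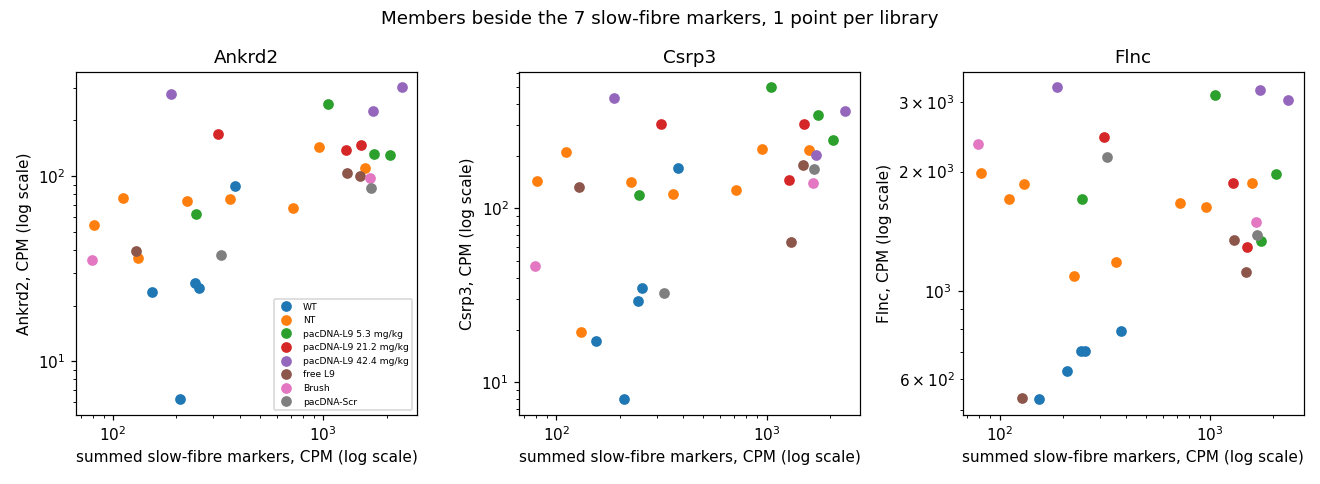
Ankrd2, Csrp3 and Flnc (y axes, CPM, log scale) beside the summed level of 7 slow-fibre markers (x axes, CPM, log scale), with 1 point per library coloured by group. The 42.4 mg/kg libraries have 225 to 302 CPM of Ankrd2 at slow-marker sums from 188 to 2357 CPM.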

How the data were processed

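The deposited counts are whole numbers per Ensembl gene for 30 quadriceps libraries, made by the authors without normalization. Per the labels and methods, poly(A) RNA was sequenced in pairs, reads were trimmed and mapped to GRCm39, and the submitters' processing notes name HISAT2 2.0.5 and DESeq2. The annotation release, the use of strand and the treatment of reads with several matches are not given in the sources used here. Symbols came from GENCODE vM39 for 56017 of 56748 genes.

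Counts were filtered by edgeR's filterByExpr (17518 genes left), TMM-normalized and fitted over all 30 libraries by edgeR 4.0.16 quasi-likelihood with 1 coefficient per group and the deposited set as a term. Standard errors are the log2 change divided by the root of F. P-values were adjusted by Benjamini-Hochberg over all genes, at a threshold of 0.05. Alternatives included DESeq2 1.42.0 (R 4.3.3). The sets were read from the library numbers in the labels, and the name styles from the column names. P-values measure the spread between these libraries.

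The members and gene lists were chosen with earlier results of these data known. From each list at most 4 genes were eligible to be named with values, those with the smallest adjusted p among the genes called in NT against WT or 42.4 mg/kg against NT. For Ky the 5 highest and 5 lowest correlations of log2(CPM + 1) were named. Genes listed without values are the calls of a list. The costamere list in NT against WT is not reported here. The letters A to C of 5.3 mg/kg and free L9 are replicate letters only. Deviations from the group means correlated between samples of the same letter at r = 0.54, 0.38 and 0.68. Unlike letters were not compared, and letter C is also the second set in both groups. These values therefore do not show that the samples are paired.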

Additional observations from a re-analysis of the deposited data

Results flagged for a closer look

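In the unnumbered WT library 3 of the 9 genes stood apart from the other 4 WT libraries by Dixon's test. Xirp1 was at 224 CPM there against 117 to 143 CPM, Ankrd2 at 88.9 CPM against 6.23 to 26.5 CPM, and Csrp3 at 170 CPM against 7.98 to 34.9 CPM. The test was made in 27 sets of values (9 genes in WT, NT and 5.3 mg/kg), where chance marks about 1 in 20. All 3 values belong to 1 library, so they are not independent.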

How the results depend on the processing

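Leaving out 1 library at a time gave these numbers of called members: 0 to 3 for 42.4 mg/kg against NT, 0 to 1 for free L9 against NT and for 5.3 mg/kg against free L9, 2 to 5 for 5.3 mg/kg against WT, 1 to 5 for 21.2 mg/kg against WT, 2 to 6 for free L9 against WT, 0 to 2 for Brush against WT and 0 to 2 for pacDNA-Scr against WT. In the last 2 of these the fit without a library leaves Brush or pacDNA-Scr with 1 sample, which is then assumed to vary like the others. The 5 for 21.2 mg/kg, the 5 for 5.3 mg/kg and the 6 for free L9 came without the unnumbered WT library. In the same fits the log2 change of Xirp2 from WT to NT ran from -0.0017 to 0.21, that of Flnc at 21.2 mg/kg from NT from -0.039 to 0.43, and those of Igfn1 and Ankrd23 from NT to 42.4 mg/kg from -0.27 to 0.38 and from -0.17 to 0.029. With only the 9 libraries named by group and running number, an alternative chosen after seeing the data, most groups had 1 library, WT and NT among them. That fit could not test the members, so only its effect sizes are given. There Ankrd23 differed by 0.46 (log2) from WT to NT, and Ky from WT by 0.047 with free L9, by 0.35 with pacDNA-Scr and by -2.62 at 42.4 mg/kg. With only the 15 other libraries of the first set, also chosen after seeing the data, 1 member was called for Brush and 1 for pacDNA-Scr against WT, and Xirp2 was at -0.063 from WT to NT. Name style, which splits the first set and keeps the second as a level, left 1 member at 42.4 mg/kg against NT. Against WT it gave 5 at 5.3 mg/kg, 1 with free L9 and 1 with pacDNA-Scr. It turned Csrp3 (-0.46) and Ankrd23 (0.13) at 42.4 mg/kg against NT and Ky with pacDNA-Scr against WT (0.019). With no filter on low counts 0 members were called at 42.4 mg/kg against NT, 1 for Brush and 1 for pacDNA-Scr against WT. DESeq2 called 1 member for 5.3 mg/kg against free L9, 5 at 5.3 mg/kg and 4 with free L9 against WT. For 5.3 mg/kg against free L9, 1 member was called in the first set alone, 1 with library size alone and 1 without the 5 libraries lacking mitochondrial counts (chosen after seeing the data), and for pacDNA-Scr against WT 1 with no set term and 1 with sex in the fit, where Igfn1 at 42.4 mg/kg against NT was -0.0053. The cause of these changes was not tested.

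Numbers 1 to 4 of WT and NT share only a number: their deviations from the group means correlated at 0.22, 0.0054, 0.13 and 0.27, and 2 of 4 WT libraries correlated best with their own number. With the replicate block over these 8 libraries 631 genes and 6 members other than Ky were called, against 680 genes and 3 members without it, and Xirp2 was at -0.018 with the block and -0.051 without. The fit of 5.3 mg/kg against free L9 with the letter as a block left out the set term. It called 0 genes, against 126 in the fit over all libraries, and 0 members were called in both. Genes called in all were 550 at 42.4 mg/kg against NT, 809 by DESeq2 (within 1.5 times) and 240 with name style. For free L9 against NT they were 165, but 22 with no set term, 42 with at least 10 counts in every library, 354 in the first set alone and 530 by DESeq2. For 5.3 mg/kg against free L9 they were 126, but 2 with no set term, 26 at 10 counts and 423 by DESeq2.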
